A study of Mus musculus with 41 samples.

Results

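Ribosome biogenesis genes were followed across mouse embryos, cerebella and fibroblasts that lacked a factor of ribosome rescue or of mRNA decay. The group comprises 49 genes taken by their symbols, from Polr1a and Polr1b of RNA polymerase I to the late assembly factors of both ribosomal subunits, out of 22438 genes with ribosome footprint counts and 55385 genes with RNA estimates. All 49 were found in both kinds of table and passed the filter on low counts in every comparison. They are described by role: 2 subunits of RNA polymerase I, 4 proteins of the box C/D small nucleolar RNPs and the U3 particle, 4 proteins of the box H/ACA particles and their chaperone, 2 abundant nucleolar proteins, 16 genes of the small subunit processome and 40S assembly, and 21 genes of 60S assembly.

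The study asked how loss of HBS1L and its partner PELO, which release stalled ribosomes, changes translation, and compared this with loss of UPF2, a factor of nonsense-mediated mRNA decay (NMD). Ribosome-protected fragments (RPFs, the footprints of translating ribosomes) were sequenced from whole E8.5 embryos of the C57BL/6NJ strain, Hbs1l -/- or Wildtype, with several embryos pooled in each replicate, and from cerebella of single P14 mice of the C57BL/6J strain, Atoh-Cre;Hbs1l cKO or Atoh-Cre;Hbs1l +/+. They were also sequenced from primary mouse embryonic fibroblasts (MEFs, C57BL/6) of the genotypes CAG-Cre ER; Hbs1l cKO, CAG-Cre ER; Pelo cKO and CAG-Cre ER; Upf2 cKO, each with CAG-Cre ER controls of its own sequencing batch, and RNA was sequenced from MEFs of the same 4 genotypes in a further batch. Every group had 3 replicates, except for RNA of Pelo-/- MEFs with 2, and the 41 libraries form 14 groups.

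Several features limit the groups as models. All MEFs, controls included, carried the tamoxifen-inducible Cre transgene and received tamoxifen, and each culture came from a single embryo. The Atoh1-Cre driver acts in cerebellar granule cells and their progenitors, and the cKO mice had 1 floxed and 1 null allele of Hbs1l, so that the other cells of the cerebellum kept 1 functional copy. The conditional animals and the MEFs carried the C57BL/6J allele of the tRNA gene n-Tr20, in mutants and controls alike. Embryos, cerebella and MEFs were sequenced in separate batches, so that tissue, strain and batch cannot be told apart. In bulk libraries, fewer cells of a type and less RNA in each cell cannot be told apart either.

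Ribosome biogenesis begins in the nucleolus, where RNA polymerase I transcribes the long ribosomal RNA precursor. Box C/D particles, built on fibrillarin (Fbl), Nop56 and Nop58, guide methylation of the precursor, and box H/ACA particles, built on dyskerin (Dkc1), guide its conversion of uridine to pseudouridine. The small subunit processome, held together by the U3 particle and large scaffold proteins such as Heatr1, folds and cleaves the precursor of the 40S subunit, while Bop1, Pes1 and Wdr12 form a complex needed for maturation of the 60S subunit and the giant AAA ATPase Mdn1 removes assembly factors late in that pathway. The genes are known for high expression in growing and dividing cells and many are known targets of the transcription factor MYC, which binds the E-box letters CACGTG.

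The E-box letters were searched in the 300 bases around the start of each gene, from 250 bases before it to 50 after it, in the RefSeq promoter table of the build GRCm38.p6. CACGTG reads the same on both strands, and no other motif was searched. Of the 49 genes, 43 had an entry, and 10 of these (23.3%) held the letters, against 2187 of 27025 genes (8.09%) in the whole table. Fbl, Rrs1, Bop1, Rrp12, Gnl2 and Npm1 had no entry. A match is a description of the letters and not of a bound site. The windows of Nop2, Pes1 and Mdn1, which are 3 of the 14 genes taken as examples of the roles, are shown with up to 10 bases on each side and the E-box in capitals, for Nop2 at chr6:125131813-125131838 (plus strand), for Pes1 at chr11:3963967-3963992 (plus strand) and for Mdn1 at chr4:32657147-32657168 (plus strand).
Nop2: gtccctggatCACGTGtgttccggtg
Pes1: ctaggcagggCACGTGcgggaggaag
Mdn1: attccttcacCACGTGtgtgtc

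Libraries differed in depth and in how well they matched their labels. Totals ranged from 2634480 to 7298812 counts in embryo, from 10919139 to 22591768 in cerebellar and from 5782990 to 25607974 in MEF footprint libraries, and from 22713643 to 86425762 estimated counts in RNA libraries. Hbs1l footprints fell by 3.60 on the log2 scale in Hbs1l-/- embryos, by 1.503 in the cerebellum, where other cells keep 1 copy, and by 4.15 in Hbs1l-/- MEFs, and Pelo footprints fell by 3.78 in Pelo-/- MEFs. Pelo RNA was at 0.549 and 0.0867 CPM in Pelo-/- MEFs against 23.4, 23.9 and 24.7 CPM in controls. Upf2 went against its label, because its footprints (log2 fold change 1.09) and its RNA (1.33) were both higher in the libraries labelled Upf2-/-. The values are sums over the coding sequence or over all transcripts and need not read the deleted part of the gene. In the RNA of these libraries, 434 of 2945 transcripts annotated as NMD targets rose and 3 fell, against 6 and 4 of 2296 in Hbs1l-/- MEFs and 3 and 18 of 2165 in Pelo-/- MEFs. Upf2 RNA was lower in Pelo-/- MEFs, at 8.31 and 5.29 CPM against 15.3, 21.5 and 16.5 CPM in controls. It was also below every control in Hbs1l-/- MEFs, at 9.12, 14.4 and 12.7 CPM against 15.6, 21.1 and 16.6 CPM. In embryos, the Hbs1l-/- library of replicate 1 stood apart from the other mutants. Its score on the first principal component, which held 53.9% of the variance, was -5.34, against 29.5 and 37.0 in the other mutant libraries and -21.9 to -19.3 in controls. Footprint controls with the same replicate number in different MEF batches differed almost within sampling noise (chi-square per gene 1.10 to 1.20, against 4.31 to 13.6 for other pairs), so that the 3 MEF footprint comparisons share control cultures, as the 3 RNA comparisons share control libraries. All 6 listed fibroblast markers were tested in MEFs, where Col1a1, a major collagen chain, had 11898 to 12903 CPM, or footprint counts scaled to library size, in controls.

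In control MEFs the 49 genes spanned a wide range of RNA levels. Scaled for transcript length and library size (TPM, mean ± SD, n = 3), Npm1, a histone chaperone of the nucleolus, was highest at 705 ± 118 TPM, followed by the nucleolar protein Ncl at 237 ± 43.7 TPM and the methyltransferase Fbl at 158 ± 28.1 TPM. The lowest were the helicase Ddx10 at 8.55 ± 1.58 TPM, the U3 protein Utp15 at 6.85 ± 1.24 TPM and Mdn1 at 2.85 ± 0.99 TPM. The level of Npm1 was 247 times that of Mdn1, the median gene was at 37.4 TPM, and 44 of the 48 pairs of neighbours in this order overlapped over the replicates. By role, the median TPM was 471 for the abundant nucleolar proteins, 137 for the box C/D group, 52.4 for the box H/ACA group, 43.3 for 60S assembly, 18.5 for the small subunit processome and 15.1 for RNA polymerase I.

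As a share of all footprint counts, the 49 genes took up 1.26% ± 0.02 (SD, n = 3) in control embryos, between 0.587% and 0.590% in the control MEFs of the 3 batches and 0.226% ± 0.04 in control cerebella. Control embryos were above control cerebella without overlap for 48 of the 49 genes, by a median of 5.60-fold, from 1.07-fold for Rrp1 to 17.8-fold for Rrp1b. Control MEFs were above cerebella without overlap for 46 genes, by a median of 2.57-fold, with Rrp1 at 0.474 of the cerebellar level and Utp20 at 11.3-fold. These are levels in different batches and tissues and were not tested, and the counts are given without the share of all genes.

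Footprints on ribosome biogenesis genes were higher in all 3 mutant MEF genotypes, and no member fell past the threshold in any of them. In Hbs1l-/- MEFs, 40 of the 49 genes rose (edgeR quasi-likelihood test, adjusted p of at most 0.05), where 17.4% of all 11984 genes tested rose and 16.7% fell. Their share of footprint counts was 0.810% ± 0.027 against 0.590% ± 0.029 in controls. The median log2 fold change was 0.39 over the 49 genes and -0.01 over all genes tested, and the value was positive for all 49. Mutant and control libraries did not overlap for 41 genes, all higher, which holds for 23.4% of all genes.

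Pelo-/- MEFs gave 44 genes that rose, against 22.9% of 12486 genes tested, with a median of 0.41 against 0.00 and a footprint share of 0.793% ± 0.019 against 0.587% ± 0.030. The libraries labelled Upf2-/- gave 36 genes that rose, against 22.3% of 12166, with a median of 0.42 against 0.00 and a share of 0.801% ± 0.021 against 0.587% ± 0.032. Without overlap, 46 and 40 genes were higher, against 28.5% and 27.5% of all genes. With the 3 sets of control libraries summed over batches, 40, 45 and 37 genes rose, counts given without the share of all genes.

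**Figure D1:**
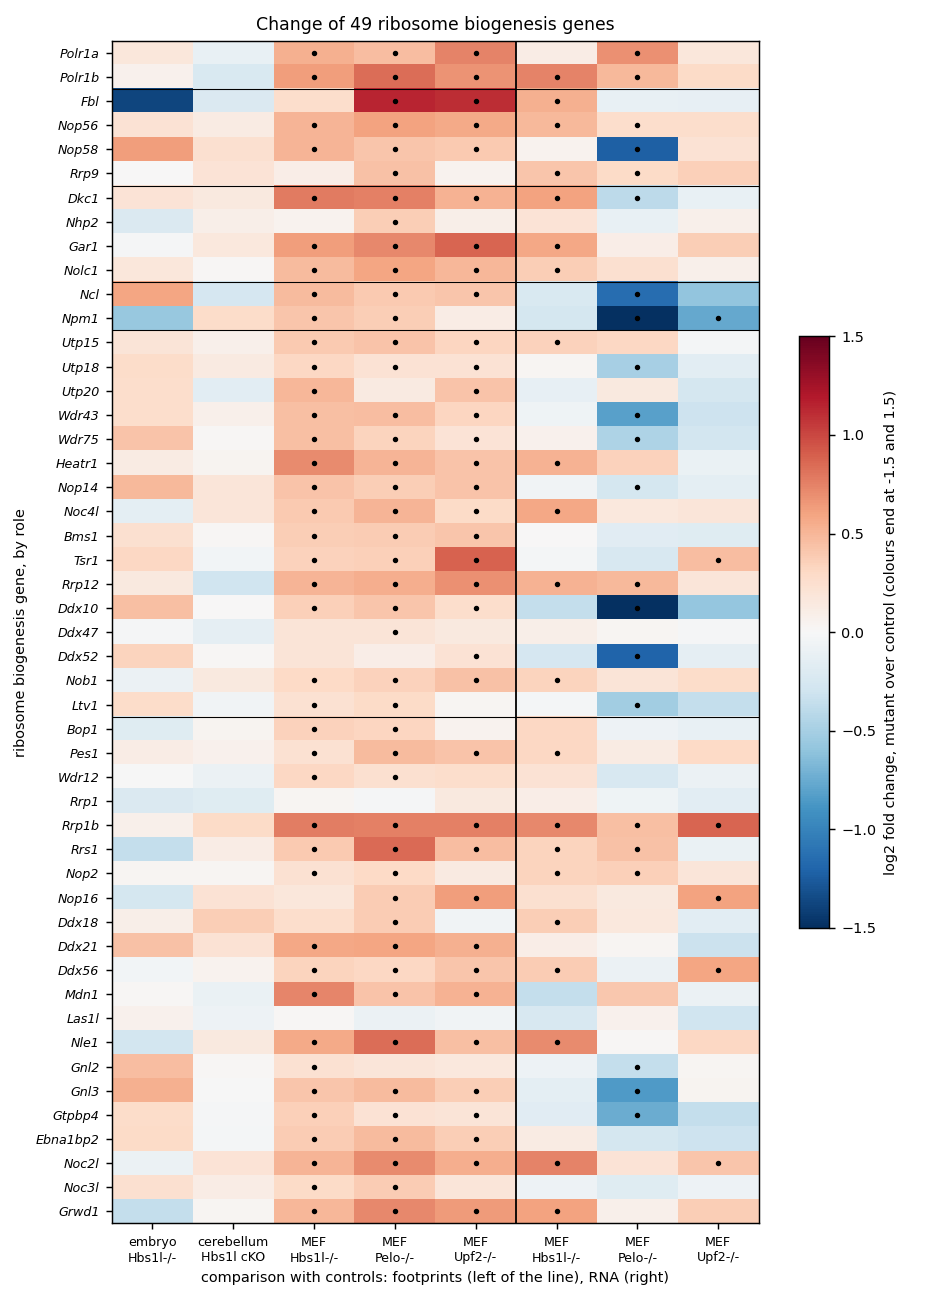
Log2 fold change of mutant over control for each of the 49 genes (rows, grouped by role) in 5 footprint and 3 RNA comparisons (columns), with a dot where the adjusted p was at most 0.05. Dots fill most of the 3 MEF footprint columns (40, 44 and 36 genes, all higher), the embryo and cerebellum columns hold none, and the RNA column of Pelo-/- MEFs holds both directions.

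Both genes of RNA polymerase I rose in each MEF mutant. For Polr1b, the second largest subunit, footprints were 61.7, 57.1 and 57.2 CPM in controls and 99.3, 80.6 and 89.6 CPM in Hbs1l-/- MEFs, a 1.54-fold rise (log2 fold change 0.62 ± 0.09 (SE), adjusted p = 0.000107). In Pelo-/- MEFs the same gene had 97.4, 103 and 93.1 CPM against 56.9, 52.2 and 55.2 CPM in controls (0.84 ± 0.07, adjusted p = 1.31e-05). The lowest mutant library was thus above the highest control library in both comparisons. In libraries labelled Upf2-/- Polr1b rose by 0.67 on the log2 scale. Polr1a, the largest subunit, rose by 0.53, 0.47 and 0.75 on the log2 scale in Hbs1l-/-, Pelo-/- and libraries labelled Upf2-/-, and in the last of these its 236, 238 and 231 CPM stood well above the 150, 133 and 137 CPM of controls.

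Among the box C/D proteins, Fbl rose past the threshold in Pelo-/- MEFs and in libraries labelled Upf2-/- and not in Hbs1l-/- MEFs. The test of its difference between Pelo-/- and Hbs1l-/- MEFs is given below and depended on single libraries. Footprints of Fbl were few for its RNA level, and how reads that map to more than 1 place were counted is not given in the sources used here. They were at 6.34, 6.17 and 7.24 CPM in the controls of the Hbs1l batch and 8.18, 7.88 and 7.64 CPM in Hbs1l-/- MEFs, where the log2 fold change of 0.27 ± 0.16 did not pass the test (adjusted p = 0.225) although the groups did not overlap. In Pelo-/- MEFs Fbl rose 2.21-fold, from 5.37, 7.16 and 8.82 CPM to 15.3, 16.5 and 15.4 CPM (adjusted p = 0.000327). In the libraries labelled Upf2-/- it rose 2.15-fold, from 6.44, 6.31 and 6.01 CPM to 13.0, 12.4 and 15.2 CPM (adjusted p = 0.000115). Fbl was the member with the largest rise in both of these genotypes, and all 6 of their libraries were above every control. Its partners Nop56 and Nop58, which form the core of the particle, rose in all 3 genotypes, Nop56 by 0.51, 0.60 and 0.57 and Nop58 by 0.51, 0.41 and 0.40 on the log2 scale. Rrp9, a protein of the U3 particle, completed the group with 0.10 in Hbs1l-/- and 0.05 in libraries labelled Upf2-/-, neither past the threshold, while all 4 genes of the group rose in Pelo-/- MEFs.

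The box H/ACA group followed with 3, 4 and 3 of its 4 genes. Dkc1, the pseudouridine synthase of the particle, had the largest rise of any member in Hbs1l-/- MEFs, from 63.5, 58.2 and 75.2 CPM to 114, 111 and 113 CPM (1.72-fold, log2 fold change 0.78 ± 0.09, adjusted p = 2.41e-05). It rose by 0.76 in Pelo-/- and by 0.52 in libraries labelled Upf2-/-. Gar1, a core protein of the same particle, was among the 3 largest rises in the libraries labelled Upf2-/-, from 37.2, 32.1 and 37.9 CPM to 65.7, 58.7 and 73.3 CPM (1.84-fold). The lowest mutant library was above the highest control for Dkc1 and for Gar1 in these comparisons. Nhp2, another core protein, had the smallest values of the group, 0.05, 0.37 and 0.09, of which that in Pelo-/- MEFs passed the test.

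Both abundant nucleolar proteins rose in Hbs1l-/- and Pelo-/- MEFs, and Ncl alone in libraries labelled Upf2-/-. Ncl had 1088, 1044 and 1183 CPM in controls and 1578, 1422 and 1617 CPM in Hbs1l-/- MEFs (log2 fold change 0.48 ± 0.07), and it rose by 0.39 in Pelo-/- and by 0.42 in libraries labelled Upf2-/-. Npm1 rose in Hbs1l-/- MEFs, from 189, 176 and 200 CPM to 253, 241 and 258 CPM (0.41 ± 0.07), and by 0.37 in Pelo-/- MEFs. In the libraries labelled Upf2-/- Npm1 had 190, 230 and 175 CPM against 177, 172 and 200 CPM, groups that overlapped (0.11, adjusted p = 0.366).

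In the small subunit group, 14 of 16 genes rose in each of the 3 genotypes. Heatr1, a scaffold of the processome, rose 1.64-fold in Hbs1l-/- MEFs, from 145, 146 and 155 CPM to 249.1, 240.0 and 241.5 CPM (adjusted p = 3.63e-06), and by 0.51 and 0.43 on the log2 scale in the other genotypes. Tsr1, which acts late in 40S assembly, rose 1.85-fold in the libraries labelled Upf2-/-, from 127, 117 and 130 CPM to 228, 232 and 233 CPM (adjusted p = 3.12e-06). In both cases the 3 mutant libraries lay close together and above every control. Nob1, the nuclease that makes the mature end of 18S ribosomal RNA, rose by 0.30, 0.35 and 0.44. The smallest values were 0.19 and 0.10 for the helicase Ddx52 in Hbs1l-/- and Pelo-/- MEFs and 0.03 for Ltv1, an export and assembly factor of the 40S subunit, in libraries labelled Upf2-/-.

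Of the 21 genes of 60S assembly, 17, 18 and 13 rose. Mdn1 rose 1.66-fold in Hbs1l-/- MEFs, from 162, 179 and 171 CPM to 291, 258 and 302 CPM (adjusted p = 7.77e-06), and by 0.42 and 0.52 on the log2 scale in the other genotypes. Rrp1b, a nucleolar protein of 60S assembly, rose 1.70-fold there, from 30.3, 24.1 and 28.7 CPM to 45.5, 46.3 and 48.9 CPM. Rrs1, which brings the 5S particle into the precursor, was among the largest rises in Pelo-/- MEFs, from 51.5, 53.5 and 43.6 CPM to 86.1, 99.1 and 82.5 CPM (1.80-fold). For these genes no mutant library fell within the range of the controls. Of Bop1 and Pes1, partners in 1 complex, Pes1 rose by 0.43 in the libraries labelled Upf2-/- and Bop1 had 119, 118 and 134 CPM against 119, 131 and 107 CPM (0.06, adjusted p = 0.624), a difference between genes that was not tested. Bop1 rose by 0.34 and 0.33 and Pes1 by 0.22 and 0.48 in Hbs1l-/- and Pelo-/- MEFs. Nop2, a methyltransferase of 28S ribosomal RNA, rose by 0.23 and 0.30 in these and had 0.13 in libraries labelled Upf2-/- (adjusted p = 0.164). Las1l, part of the complex that cuts the second internal spacer, had the lowest value of all 49 genes in each genotype, 0.01, -0.09 and -0.05.

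**Figure D2:**
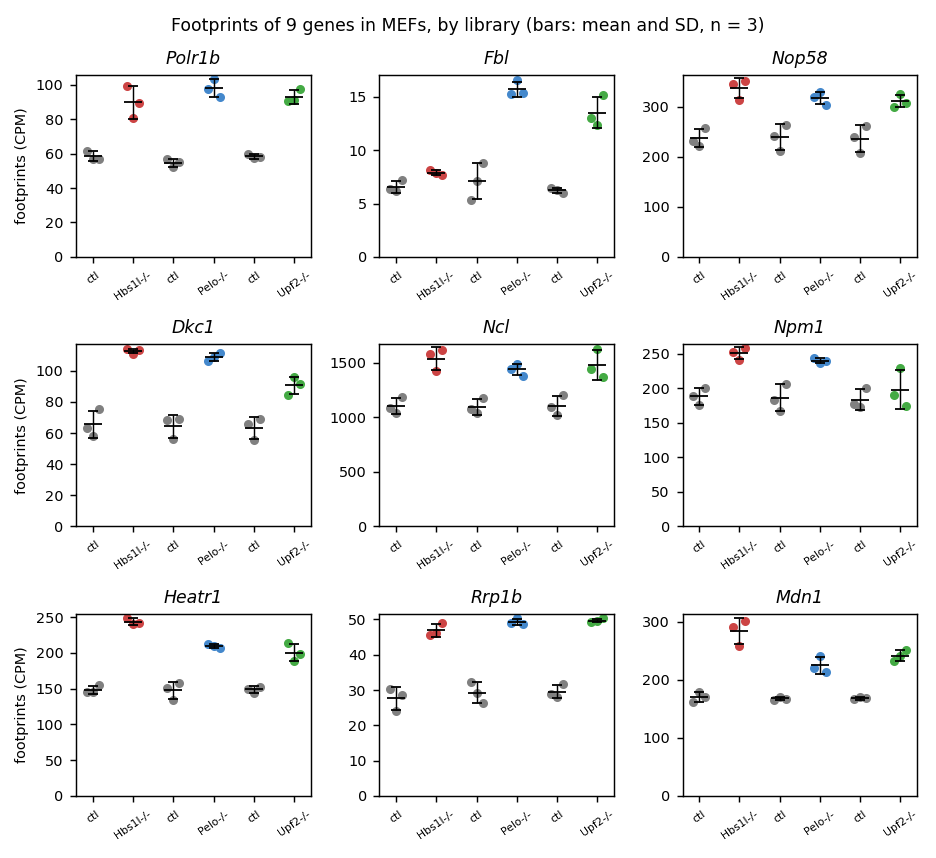
Footprints in CPM (vertical axes, each from 0) of 9 ribosome biogenesis genes in every MEF library, with grey points for the controls of each batch, coloured points for the mutants and bars for the mean and SD of 3 replicates. Mutant points of Polr1b, Dkc1, Heatr1, Rrp1b and Mdn1 lie above the controls of their batch in all 3 genotypes, while Fbl rises in Pelo-/- and in libraries labelled Upf2-/- and Npm1 overlaps its controls in the latter.

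Markers of dividing cells moved with these footprints. Of 12 listed proliferation genes, 12, 12 and 11 rose in the 3 MEF footprint comparisons, with a median of 0.66, 0.68 and 0.65 on the log2 scale. Their summed level was 2845 to 3061 CPM in Hbs1l-/- MEFs against 1620 to 1930 CPM in controls, 2721 to 3041 against 1633 to 1958 CPM in Pelo-/- MEFs, and 2677 to 2957 against 1630 to 1942 CPM in libraries labelled Upf2-/-. The fibroblast markers also rose, 6 of 6 in Hbs1l-/- and Pelo-/- MEFs and 5 of 6 in libraries labelled Upf2-/-, where 1 fell. Of 5 macrophage markers, 4, 5 and 2 rose. Of 5 endothelial markers, 3, 4 and 3 were tested, and their summed level was lower in each genotype, at 37.0 to 43.0 against 68.8 to 82.4 CPM, 23.8 to 31.7 against 73.6 to 83.9 CPM and 53.2 to 59.7 against 68.4 to 86.2 CPM. Among them Emcn fell by 2.41, 4.49 and 2.92 on the log2 scale and Kdr by 0.65 and 1.46 in Hbs1l-/- and Pelo-/- MEFs, while Cdh5 rose by 2.69 in Pelo-/- MEFs and Tek by 1.23 in libraries labelled Upf2-/-. Of the neuronal markers, Zic1 was the 1 tested of 6 and fell by 0.86, 1.20 and 0.71. Of the granule cell progenitor markers, Ccnd2 fell in each genotype (-0.44, -0.56 and -0.70). Mycn fell in Pelo-/- MEFs (-0.86) and in libraries labelled Upf2-/- (-0.87), and Gli2 rose in Hbs1l-/- MEFs (0.31). Markers of glia (Gfap, by 4.37), visceral endoderm (Rbp4, by 3.83) and early embryo (Sox2, by 1.09) also rose in Pelo-/- MEFs, 1 of 4, 1 of 2 and 1 of 2 tested, from low levels. Gfap had 3.53 to 6.89 CPM against 0.0874 to 0.356 CPM, Rbp4 1.08 to 3.20 CPM against 0 to 0.314 CPM, and Afp, another endoderm marker, ranged from 0.599 to 46.1 CPM in Pelo-/- libraries against 0 to 0.157 CPM. Aldh1l1, another marker of glia, fell in libraries labelled Upf2-/- (log2 fold change -1.12). Myc footprints rose in Hbs1l-/- (0.20) and Pelo-/- MEFs (0.55) and had 0.01 in libraries labelled Upf2-/-, and Mycl fell in Hbs1l-/- MEFs (-0.68). Myc RNA rose in Hbs1l-/- (0.49) and Pelo-/- MEFs (0.75) and had 0.07 in libraries labelled Upf2-/-, and Mycl RNA rose in Pelo-/- MEFs (0.53). The part of these markers in the result was not tested.

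Footprint changes of Pelo-/- MEFs were also compared with those of the other mutants. The difference of 2 log2 fold changes was tested as an interaction over the libraries of both batches, in which the repeat runs of the same control cultures entered as separate samples. Between Pelo-/- and Hbs1l-/- MEFs, 2 of 49 genes passed, Fbl with a difference of 0.88 (adjusted p = 0.0296) and Utp20, a processome scaffold, with -0.36 (adjusted p = 0.0124), where 5.52% of all 12526 genes passed. The difference of Fbl passed in 3 of 12 fits with 1 library left out, those without Pelo-/- replicate 3, its control replicate 3 or the Hbs1l batch's control replicate 2, and missed the threshold in the other 9 (adjusted p = 0.0506 to 0.0765) and with a GC offset (0.80, adjusted p = 0.0591), whereas Utp20 passed in all 12. Utp20 had 263, 257 and 254 CPM in controls and 287, 284 and 280 CPM in Pelo-/- MEFs, and 260, 239 and 258 against 360, 347 and 359 CPM in Hbs1l-/- MEFs. Between Pelo-/- and libraries labelled Upf2-/-, 2 genes passed, Tsr1 with -0.53 (adjusted p = 0.00110) and Utp20 with -0.29 (adjusted p = 0.0126), where 13.1% of all 12675 genes passed. Compared directly between mutant libraries, which belong to different batches, 8 and 14 of 49 genes passed, where 15.6% and 26.7% of all genes did.

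RNA of the same genes did not follow the footprints in a single direction. In Hbs1l-/- MEFs, 21 of 49 genes rose and none fell, against 12.7% and 10.4% of 15318 genes tested. The number that rose was 12 without mutant replicate 3 and 12 without control replicate 2, given without the share of all genes. The median log2 fold change was 0.20 against -0.01 over all genes, and the 49 genes took up 0.559% ± 0.040 of estimated counts against 0.498% ± 0.047. Their libraries did not overlap for 24 genes that were higher and 1 that was lower, against 23% and 21.3% of all genes. In Pelo-/- MEFs, with 2 libraries, 8 genes rose and 14 fell, against 15.5% and 16.6% of 14705 genes, with a median of 0.01 and a share of 0.425% ± 0.023. Groups did not overlap there for 18 higher and 19 lower genes, against 31.3% and 31% of all genes. In libraries labelled Upf2-/-, 5 genes rose and 1 fell, against 13.2% and 6.76% of 15983 genes, with a median of -0.08 and a share of 0.490% ± 0.063, and groups did not overlap for 10 higher and 8 lower genes, against 21.9% and 18% of all genes.

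The RNA of Polr1b, Rrp1b and Noc2l changed most in Hbs1l-/- MEFs. Polr1b rose 1.68-fold, from 34.1, 41.0 and 39.8 CPM to 69.7, 60.7 and 62.8 CPM (adjusted p = 0.00247). Noc2l, a 60S assembly factor, rose from 175, 176 and 203 CPM to 320, 282 and 322 CPM (log2 fold change 0.74), and Rrp1b rose from 26.2, 33.0 and 32.1 CPM to 51.0, 48.2 and 51.4 CPM (0.72). No mutant library of these 3 genes reached down to the controls. Fbl (0.54), Nop56 (0.48), Dkc1 (0.60), Heatr1 (0.52), Nob1 (0.33), Pes1 (0.32) and Nop2 (0.34) also rose, and Bop1 had 0.31 without overlap of the groups (adjusted p = 0.0578). Ncl, with 429, 611 and 641 CPM against 594, 681 and 689 CPM, and Npm1, with 419, 615 and 664 CPM against 644, 665 and 736 CPM, had values of -0.22 and -0.27 that rested on 1 low library each and did not pass the test. Polr1a (0.11), Nop58 (0.05) and Mdn1 (-0.36, adjusted p = 0.159) did not pass either. Of the 12 proliferation markers, 9 rose in this RNA, with a sum of 1666 to 1693 CPM against 1014 to 1208 CPM, and 4 of 5 macrophage markers rose, from a sum of 78.0 to 107 CPM to 140.4 to 187 CPM. Of 6 fibroblast markers 4 rose, from a sum of 3767 to 5860 CPM to 5730 to 9661 CPM, and of 4 tested endothelial markers 2 fell (Emcn by 2.51 and Kdr by 0.77), from a sum of 28.3 to 36.2 CPM to 15.4 to 18.0 CPM. Among markers of other tissues, Zic1 (-0.60) and Hand1 (-1.73) fell. Of the granule cell progenitor markers, Gli1 (1.82) rose while Ccnd2 (-0.68) and Mycn (-0.78) fell. The part of these markers in the values was not tested.

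Pelo-/- MEFs showed the strongest decreases. Npm1 RNA was 632, 677 and 734 CPM in controls and 246 and 170 CPM in Pelo-/- MEFs, a fall of 1.71 ± 0.17 on the log2 scale (adjusted p = 0.00108). Ddx10 fell by 1.64 ± 0.17, from 18.0, 22.4 and 20.9 CPM to 7.58 and 5.50 CPM (adjusted p = 0.00127). Nop58 fell by 1.22 ± 0.12, from 100.2, 109 and 110.4 CPM to 51.2 and 40.3 CPM, and Ncl fell by 1.14 ± 0.12, from 583, 693 and 687 CPM to 323 and 271 CPM. Both mutant libraries were below every control for each of these genes. Dkc1 fell by 0.39 (adjusted p = 0.0389). In the same libraries Polr1a rose 1.61-fold, from 57.7, 87.7 and 87.7 CPM to 124 and 127 CPM (adjusted p = 0.0227), Rrp12, a 40S export factor, rose by 0.49, from 61.1, 69.3 and 72.5 CPM to 97.9 and 91.9 CPM, and Polr1b rose by 0.49. Nop2 (0.35) and Nop56 (0.27) also rose, whereas Heatr1 (0.35, adjusted p = 0.0506), Mdn1 (0.41, adjusted p = 0.167), Nob1 (0.19), Pes1 (0.12), Bop1 (-0.08) and Fbl (-0.11) did not pass the test. With either Pelo-/- library left out, 8 or 9 genes passed, with 8 falling in each case and 0 or 1 rising.

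In the libraries labelled Upf2-/-, Rrp1b RNA rose 1.83-fold, from 26.7, 33.6 and 32.5 CPM to 51.0, 63.7 and 55.2 CPM (adjusted p = 0.00126). Nop16 rose by 0.61, from 60.3, 54.4 and 64.6 CPM to 89.1, 92.2 and 91.7 CPM, and the helicase Ddx56 rose by 0.60, from 81.8, 83.1 and 89.7 CPM to 106, 129 and 149.7 CPM, both of them 60S factors. Their mutant libraries did not overlap the controls. Npm1 fell by 0.77 ± 0.22, from 655, 676 and 745 CPM to 517, 449 and 250.4 CPM (adjusted p = 0.0312), and Ncl had -0.60 (adjusted p = 0.0703), with replicate 3 the lowest for both. The other 12 role examples did not pass the test, with values from -0.12 for Fbl to 0.30 for Pes1. Without replicate 1, replicate 2 or control replicate 2, the number of genes past the threshold was 12, 3 and 3, in place of 6. These numbers are given without the share of all genes.

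**Figure D3:**
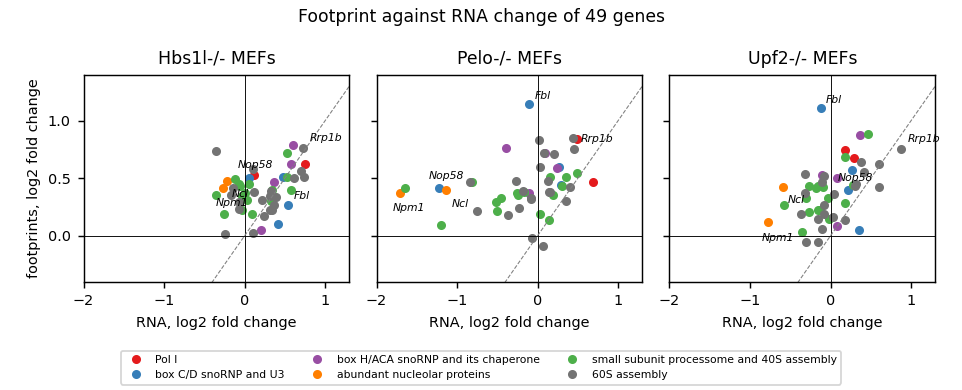
Log2 fold change of footprints (vertical axis) against that of RNA (horizontal axis) for the 49 genes in each MEF genotype, coloured by role, with a dashed line where both are equal. Most points lie above 0 on the footprint axis in all 3 panels, and in Pelo-/- MEFs Npm1, Ncl and Nop58 lie far to the left of it, with RNA lower by 1.14 to 1.71 on the log2 scale and footprints higher by 0.37 to 0.41.

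Compared directly, RNA of Pelo-/- MEFs differed from that of Hbs1l-/- MEFs at 25 of 49 genes, 4 higher and 21 lower, against 18.9% and 16.3% of 14878 genes. Mdn1 was higher by 0.81 (adjusted p = 0.00117) and Polr1a by 0.62, whereas Npm1 was lower by 1.401 and Nop58 by 1.23. Against the libraries labelled Upf2-/-, 14 genes differed, 5 higher and 9 lower, against 13.5% and 15.4% of 15525 genes. Both counts rested on the 2 Pelo-/- libraries, since without replicate 1 or 2 of these they were 10 and 5 against Hbs1l-/- MEFs and 4 and 2 against the libraries labelled Upf2-/-, and the latter count was 22 without their replicate 3. With the replicate number as a block, the counts were 11 against Hbs1l-/- MEFs and 22 against the libraries labelled Upf2-/-. These counts and those with 1 library left out are given without the share of all genes. Mdn1, Npm1 and Nop58 passed against Hbs1l-/- MEFs with any 1 library left out, and Polr1a did not without either Pelo-/- library or without Hbs1l-/- replicate 2.

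Translation efficiency (TE), the change in footprints relative to the change in RNA, was tested in 1 model of both kinds of library, by whether the effect of the genotype depended on the assay. In Hbs1l-/- MEFs none of the 49 genes passed the edgeR test, and only 4 of all 11907 genes passed, 0.0168% in each direction (0.0336% in both). An unadjusted p below 0.05 was found for 20 of the 49 genes and for 2064 of the 11907. DESeq2 called 7. The largest value was that of Mdn1, 1.11 ± 0.19 (SE) on the log2 scale (adjusted p = 0.0609), followed by Ddx10 and Ncl, both at 0.72, and Npm1 at 0.70. The other 11 role examples ran from -0.25 for Fbl to 0.47 for Nop58.

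In Pelo-/- MEFs, TE rose for 34 of 49 genes and fell for none, against 24.3% and 20.4% of 12143 genes, with a median of 0.50 against 0.04. Npm1 rose 4.28-fold (log2 change 2.099 ± 0.18), Ddx10 4.20-fold (2.07 ± 0.17), Nop58 3.14-fold (1.65 ± 0.15) and Ncl 2.93-fold (1.55 ± 0.14). The RNA of these 4 genes fell while their footprints rose. Fbl rose by 1.27 ± 0.19 and Dkc1 by 1.18 ± 0.15, while Bop1 (0.42), Pes1 (0.38), Polr1b (0.37) and Nop56 (0.35) rose less. Polr1a (-0.20), Heatr1 (0.18), Nob1 (0.18), Nop2 (-0.04) and Mdn1 (0.03) did not pass the test. Some cell-type markers also parted between the assays in Pelo-/- MEFs. Pdgfra had 3.39 in footprints and 0.41 in RNA, Emcn -4.49 and -0.47 and Kdr -1.46 and 0.73, while Col1a2 had 0.77 and 0.64. In Hbs1l-/- MEFs, Pdgfra had 2.23 and 2.16 and Emcn -2.41 and -2.51. The part of these markers in TE was not tested. With the RNA libraries of Hbs1l-/- MEFs in place of those of Pelo-/- MEFs, 4 of the 49 genes passed, a count given without the share of all genes.

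TE in the libraries labelled Upf2-/- rose for 17 genes and fell for none, against 8.47% and 11.8% of 12054 genes (20.3% in both), with a median of 0.34 against -0.03. Fbl, with the few footprints described above, led with a 2.31-fold rise (1.21 ± 0.17, adjusted p = 0.000478), followed by Ncl (1.00 ± 0.25, adjusted p = 0.0107) and Npm1 (0.87 ± 0.26, adjusted p = 0.0279). Mdn1 (0.59), Polr1a (0.55) and Heatr1 (0.51) also rose, and Dkc1 had 0.61 (adjusted p = 0.0653). Polr1b (0.36), Nop56 (0.28), Nop58 (0.16), Nob1 (0.15), Bop1 (0.14), Pes1 (0.11) and Nop2 (-0.07) did not pass the test. By role, TE rose for 2 of 2 abundant nucleolar proteins, 7 of 16 small subunit genes and 5 of 21 genes of 60S assembly. With the RNA of Hbs1l-/- MEFs in place, 7 genes passed, and between 7 and 20 with 1 library left out. These counts are given without the share of all genes.

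The base composition of the transcripts moved with the RNA values. Transcript GC content ranged over the 49 genes from 42.4% for Npm1 to 59.8% for Rrp9. Across the 49 genes, which are not independent replicates, the correlation of RNA log2 fold change with GC content was 0.64 in Hbs1l-/-, 0.63 in Pelo-/- and 0.54 in libraries labelled Upf2-/- (Pearson), against 0.25, 0.38 and 0.25 across all genes. In Pelo-/- MEFs the 14 genes that fell had 42.4% to 48.3% GC and the 8 that rose 49.8% to 59.8%. For TE the correlations were -0.73, -0.50 and -0.44, against -0.52, -0.24 and -0.23 across all genes. For MEF footprints they were -0.15, 0.34 and 0.17, against -0.07, 0.01 and 0.03. With GC content as an offset in the fit, an alternative chosen after seeing the data, the correlation with RNA was 0.31, 0.42 and 0.20. Genes that hold small nucleolar RNA genes in their introns, of which there are 7 (Nop56, Nop58, Dkc1, Ncl, Wdr43, Tsr1 and Gnl3), made up 5 of the 14 that fell in Pelo-/- MEFs and 1 of the 8 that rose. In the RNA of Pelo-/- MEFs, none of the 12 proliferation markers rose and 4 fell, and their sum was 974 to 1003 CPM against 995 to 1205 CPM. In the RNA of libraries labelled Upf2-/- 1 rose and none fell, and the sum was 960.4 to 1251 CPM against 1030.2 to 1224 CPM. Of the fibroblast, macrophage and endothelial markers, 1 of 6, 1 of 5 and 1 of 4 tested rose in the RNA of Pelo-/- MEFs, and in libraries labelled Upf2-/- none rose and 1 endothelial marker fell. Among markers of other tissues, Gfap rose in the RNA of Pelo-/- MEFs (1.14), and Aldh1l1 (-0.69), Hand1 (-1.10) and Ccnd2 (-0.47) fell in libraries labelled Upf2-/-. The part of GC content, snoRNA genes and these markers in the RNA and TE values was not tested.

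**Figure D4:**
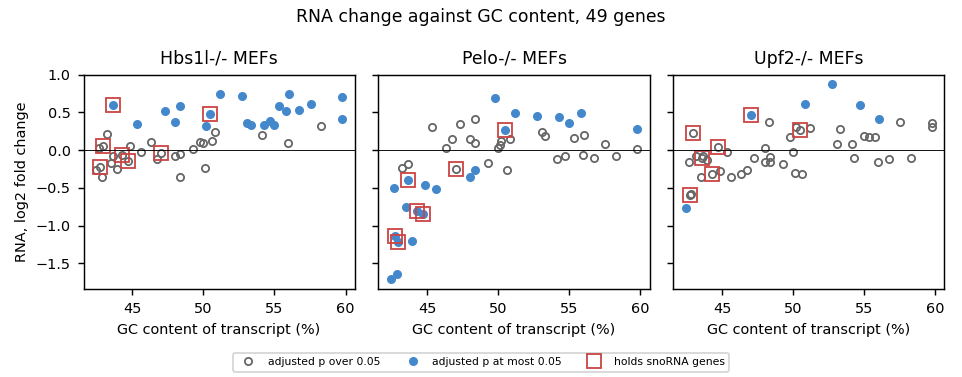
RNA log2 fold change (vertical axis) against GC content of the transcript in percent (horizontal axis) for the 49 genes in each MEF genotype, with filled points for adjusted p of at most 0.05 and red squares around the 7 genes that hold small nucleolar RNA genes. Points run from lower left to upper right in each panel (Pearson r 0.64, 0.63 and 0.54), and in Pelo-/- MEFs the genes that fell lie at 48.3% GC or lower.

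Some members also make transcripts that the annotation marks as targets of NMD, because their reading frame ends before an exon junction, or as retaining an intron. In the libraries labelled Upf2-/-, 27 NMD transcripts of 15 members were tested, and 7 rose and none fell, against 14.7% and 0.102% of 2945 such transcripts, with a median log2 fold change of 1.16 against 0.88. Of 43 transcripts with a retained intron, from 23 members, 7 rose and 1 fell, against 4.86% and 0.14% of 5696. Of both kinds together, 0 passed with the replicate number as a block, and 1 to 4 with 1 RNA library left out. Neither Hbs1l-/- nor Pelo-/- MEFs had an NMD or retained-intron transcript of a member that rose with edgeR, against 0.261% and 0.139% of NMD transcripts and 0.0436% and 0.0498% of retained-intron transcripts. In Hbs1l-/- MEFs none of 52 such transcripts passed with edgeR and 1 with DESeq2. In Pelo-/- MEFs 2 fell, Gtpbp4-201 by 0.77 (NMD, adjusted p = 0.0456) and Ncl-202 by 1.20 (retained intron, adjusted p = 0.0368), against 0.831% and 0.349%, while DESeq2 called 6 there, 2 that rose and 4 that fell. With any 1 RNA library left out, neither of these transcripts passed (adjusted p = 0.0940 to 0.276), and neither did with the replicate number as a block.

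The 7 NMD transcripts that rose are shown by the last 27 coding bases before the annotated stop and by the stop codon in capitals, the feature by which the annotation marks them, read from Gencode M21 transcripts of GRCm38. The stop codons lie at chr14:31016818-31016820 (minus strand) for Gnl3-204, chr7:45830140-45830142 (minus strand) for Grwd1-203, chr2:130276650-130276652 (plus strand) for Nop56-207, chr2:130278428-130278430 (plus strand) for Nop56-211, chr1:59692557-59692559 (plus strand) for Nop58-209, chr17:32048586-32048588 (plus strand) for Rrp1b-214 and chr17:32046153-32046155 (plus strand) for Rrp1b-215.
Gnl3-204: cattgccaggaacttaaaaaggtacctTAG
Grwd1-203: gtgctgtaccatcgtgcgcaaactgacTGA
Nop56-207: ggtcagtgcggagcgcggcagcctgtaTAA
Nop56-211: gaggagtgtgagggaggagataggtgcTGA
Nop58-209: gatacagcagaagcattagcagtgatcTAA
Rrp1b-214: tgtttattcagaccttctggcagaccaTGA
Rrp1b-215: tcccctcaggaaggggcagcgggcactTAG

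The number of exon junctions that follow the stop is 10 for Gnl3-204 and Rrp1b-215, 4 for Grwd1-203, 3 for Nop56-207 and Rrp1b-214, 2 for Nop58-209 and 1 for Nop56-211. The last junction lies 1075 bases after the stop in Gnl3-204, 838 in Rrp1b-215, 713 in Grwd1-203, 433 in Nop56-207, 291 in Nop58-209, 242 in Rrp1b-214 and 101 in Nop56-211. Each of these stops is thus followed by at least 1 exon junction.

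Grwd1, a histone-binding protein of 60S assembly, had the transcript with the smallest adjusted p. Grwd1-203 rose 4.74-fold, from 2.41, 1.79 and 2.18 CPM to 9.48, 9.80 and 11.02 CPM (adjusted p = 0.00335). Gnl3-204, of the nucleolar GTPase nucleostemin, rose 4.03-fold, from 2.50, 2.85 and 3.73 CPM to 16.2, 13.7 and 6.91 CPM (adjusted p = 0.0301). Every mutant library was above every control for both. Nop56-211 rose 2.87-fold, from 3.23, 2.89 and 4.95 CPM to 11.1, 10.3 and 10.7 CPM, and Nop56-207 rose from 0, 0.163 and 0.271 CPM to 2.08, 2.95 and 2.48 CPM. Nop58-209 rose from 0.241, 0 and 0.136 CPM to 3.48, 3.59 and 1.99 CPM (adjusted p = 0.0318), and the folds of these low transcripts depend on the prior count of the fit. Rrp1b-214 rose 5.95-fold and Rrp1b-215 5.60-fold, the latter from 0.289, 0.407 and 0.624 CPM to 2.40, 2.89 and 2.34 CPM. The 2 Nop56 transcripts, whose annotation holds no start codon, were low against the 183 to 203 CPM of the whole gene in controls.

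Nop58-202 and Rrp1b-205 represent the transcripts with a retained intron. Nop58-202 rose 4.81-fold, from 1.54, 1.02 and 2.11 CPM to 7.87, 8.30 and 6.63 CPM (adjusted p = 0.0136), and Rrp1b-205 rose 2.22-fold (adjusted p = 0.0352). Nop56-217 (5.89-fold), Bop1-203 (4.92-fold), Nob1-204 (4.87-fold), Noc2l-205 (4.11-fold) and Rrp9-203 (3.64-fold) rose as well. The transcript that fell, Dkc1-209, was listed at 0 in all 3 libraries and at 0.434, 0.366 and 0.529 CPM in controls (adjusted p = 0.0250), and it was also listed at 0 in all 3 Hbs1l-/- libraries. The counter divides reads between overlapping transcripts, so that these values are estimates. With any 1 RNA library left out, between 1 and 4 of these 15 transcripts passed, and 9 passed without the filter on low counts. With the replicate number as a block, 0 passed.

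**Figure D5:**
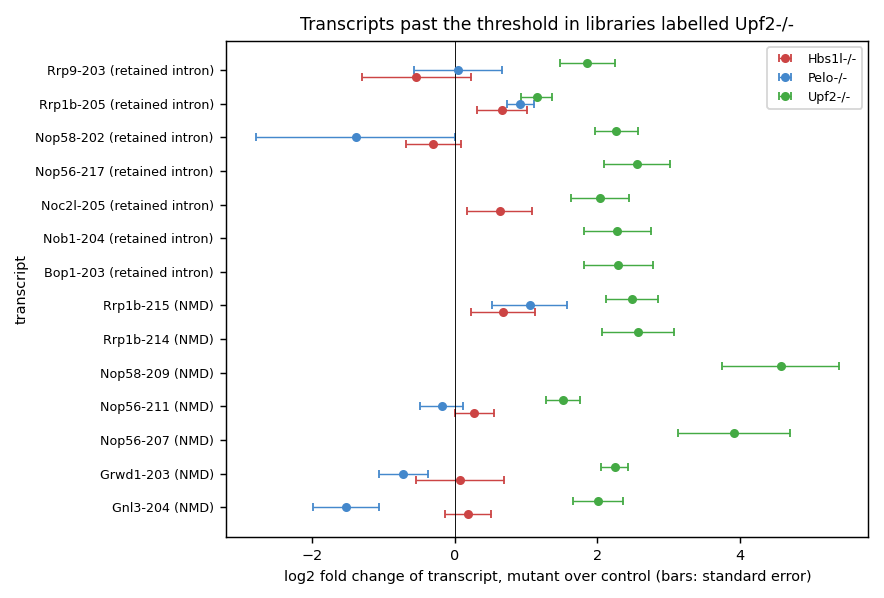
Log2 fold change with its standard error (horizontal axis) of the 14 NMD and retained-intron transcripts (vertical axis) of ribosome biogenesis genes that rose in libraries labelled Upf2-/- (green), with Hbs1l-/- (red) and Pelo-/- (blue) where the transcript passed the filter there. All green points lie above 1, at folds from 2.22 upward, and no red or blue point passed the threshold. Dkc1-209, listed at 0 in every mutant library, is not drawn.

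In Hbs1l-/- embryos none of the 49 genes passed the edgeR test, and DESeq2 called 2, a count given without the share of all genes. Of all 11416 genes, 0.92% rose and 0.955% fell past the edgeR threshold (1.87% in both). An unadjusted p below 0.05 in the edgeR test was found for 12 of the 49 genes and for 2121 of the 11416. The median log2 fold change was 0.13 against 0.01, and the share of footprint counts was 1.43% ± 0.14 against 1.26% ± 0.02. Groups did not overlap for 15 genes that were higher and 1 that was lower, against 11.4% and 12.3% of all genes. Fbl had 78.2, 71.2 and 64.5 CPM in controls and 56.4, 11.3 and 9.43 CPM in mutants, a log2 fold change of -1.38 ± 0.46 (adjusted p = 0.135). Nop58 had 427, 419 and 421 CPM against 479, 759.8 and 716 CPM (0.62 ± 0.17, adjusted p = 0.0756). For both genes, mutant replicate 1, the library that stood apart, was nearest to the controls.

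The abundant nucleolar proteins had opposite signs in embryos. Ncl had 2278, 2428 and 2461 CPM in controls and 3052, 4677 and 3045 CPM in mutants (0.59 ± 0.18), and Npm1 had 850.2, 867 and 782 CPM against 814, 482 and 386 CPM (-0.57 ± 0.22, adjusted p = 0.187). Without mutant replicate 1, 19 genes passed, 13 higher and 6 lower, where 9.65% of all genes were higher and 10.6% lower past the threshold. Among the 14 role examples, Fbl (-2.76), Npm1 (-0.94), Nop58 (0.81) and Ncl (0.69) passed there, each with the direction it had with all libraries. The other role examples had small values with all libraries: Polr1a 0.17, Polr1b 0.06, Dkc1 0.20, Nop56 0.21, Heatr1 0.13, Nob1 -0.09, Bop1 -0.18, Pes1 0.11, Nop2 0.03 and Mdn1 0.02, while the remaining members ran from -0.36 for Grwd1 to 0.53 for Gnl3. Transcript GC content and embryo footprint change had a correlation of -0.59 over the 49 genes and -0.30 over all genes, and 2 of 4 tested trophoblast markers rose, with a sum of 174 to 380.2 CPM against 105 to 131 CPM. Of 6 early embryo markers 2 fell (Hba-x by 1.49 and Myl7 by 0.72 on the log2 scale), with a sum of 3572 to 8933 CPM against 12123 to 15255 CPM. Of 6 fibroblast markers 2 fell (Col3a1 by 1.35 and Col1a1 by 0.88), with a sum of 615 to 766 CPM against 886 to 979 CPM, and of 5 endothelial markers 1 rose (Pecam1 by 1.27), with a sum of 517 to 685 CPM against 422 to 448 CPM. None of the 6 visceral endoderm or 12 proliferation markers passed. The part of GC content and of these markers in the values was not tested.

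Cerebella of Atoh-Cre;Hbs1l cKO mice showed no member past the edgeR threshold, none with an unadjusted p below 0.05, and none with DESeq2. Over all genes, 1936 of 14430 had an unadjusted p below 0.05 in the edgeR test. Only 9 of all 14430 genes passed, 0.0554% that rose and 0.00693% that fell (0.0624% in both). The median log2 fold change was 0.04 against 0.00, and the share of footprint counts was 0.237% ± 0.023 against 0.226% ± 0.038. Values ran from -0.30 for Rrp12 to 0.37 for the helicase Ddx18. Polr1a had 44.3, 39.5 and 22.0 CPM in controls and 41.5, 30.4 and 25.5 CPM in mutants, Fbl 5.49, 9.15 and 2.63 against 3.61, 7.201 and 4.36 CPM, and Ncl 459, 455 and 182 against 414, 255 and 250 CPM. In each case the groups overlapped. None of the 12 proliferation markers or the 6 of granule cell progenitors passed here, but their medians were 1.13 and 1.01 on the log2 scale and their sums did not overlap, at 322 to 599.9 CPM against 192 to 237 CPM and 227 to 325 CPM against 119.5 to 151 CPM. Their values included Cdk1 at 1.42 (adjusted p = 0.0883), Top2a at 1.43 (0.129) and Atoh1 at 1.51 (0.105), and the sum of 6 neuronal markers was 4644 to 5265 CPM against 6576 to 6978 CPM, with none past the threshold. The other role examples ran from -0.23 for Polr1b to 0.28 for Npm1. Groups did not overlap for 6 genes that were higher and 1 that was lower, against 9.38% and 8.91% of all genes. The difference between the embryo and the cerebellar change passed for none of the 49 genes with edgeR or DESeq2. With edgeR it passed for 0.766% of all 14624 genes. An unadjusted p below 0.05 in the edgeR test was found for 3 of the 49 genes and for 2316 of the 14624. The median difference over the 49 genes was 0.12.

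Other genes of the pathway were followed from a list of 96 symbols outside the 49, of which 92 were tested in every comparison. In MEF footprints 49 rose and 2 fell in Hbs1l-/-, 60 rose and 2 fell in Pelo-/-, and 53 rose and 1 fell in libraries labelled Upf2-/-, with medians of 0.30, 0.31 and 0.25. The genes that rose were 53.3%, 65.2% and 57.6% of the 92, against 17.4%, 22.9% and 22.3% of all genes. In RNA, 28 rose and none fell in Hbs1l-/- (30.4% rose, against 12.7% of all genes), 15 rose and 25 fell in Pelo-/- (16.3% and 27.2%, against 15.5% and 16.6%), and 21 rose and 5 fell in libraries labelled Upf2-/- (22.8% and 5.43%, against 13.2% and 6.76%). TE rose for 40 and fell for 1 in Pelo-/- (43.5% rose, against 24.3%), rose for 19 and fell for 4 in libraries labelled Upf2-/- (20.7% and 4.35%, against 8.47% and 11.8%), and no gene passed in Hbs1l-/-. None passed in embryos or cerebella.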

How the data were processed

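Ribosome footprints and polyA RNA were measured as described above. The authors deposited raw footprint counts per gene, made by removing reads on ribosomal RNA, tRNA and snoRNA with Bowtie2 2.2.3, mapping the rest with HISAT2 2.1.0 to mm10 (Gencode M24) and counting over coding sequences with featureCounts. For RNA, the authors deposited kallisto 0.42.4 estimated counts and TPM values per transcript, and left out another Pelo-/- library as an outlier. The strand setting of the counting is not given in the sources used here, and 19 of the 49 genes overlap a gene on the other strand. Gtpbp4 also has pseudogenes.

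The 49 genes, roles and lists were chosen with earlier results of these data known. Footprint counts were used as deposited. Estimated counts were summed per gene (not for tests of transcripts) and rounded to whole numbers. Each mutant was compared with its own controls in edgeR 4.0.16 (R 4.3.3; filterByExpr, TMM, glmQLFit, glmQLFTest), with Benjamini-Hochberg adjustment over all genes or transcripts tested and a threshold of 0.05. For footprints and TE, 100 histone symbols were left out, as by the authors. CPM are TMM-scaled, so that shared controls differ slightly between comparisons. TE used genes that passed the filter in each assay. Named genes were 14 role examples and up to 3 of the largest changes per direction without overlap between groups, a condition that TE and differences between genotypes cannot meet and for which the threshold alone was used. Members at the ends of a range were also named. Alternatives were DESeq2 1.42.0, RLE factors, no filter, each library left out, a replicate block, summed controls, 1 fit over all RNA libraries and the RNA of another mutant. A GC offset and a direct comparison of mutants were added after seeing the data. Counts of members in these alternatives are given without the share of all genes or transcripts unless it stands beside them. Precision is limited by depth, since the lowest member count in a footprint library was 26, and by 2 or 3 replicates. Sequences are from RefSeq (GRCm38.p6) and Gencode M21.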

Additional observations from a re-analysis of the deposited data

Results flagged for a closer look

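Among the named genes, the changes of 2 mutants differed in 22 cases by the edgeR test of the difference itself, and no explanation was tested. In footprints, the log2 fold change in Pelo-/- MEFs minus that in Hbs1l-/- MEFs was 0.88 for Fbl and -0.36 for Utp20 (adjusted p = 0.0296 and 0.0124). With 1 library left out, the difference of Fbl passed in 3 of 12 fits and that of Utp20 in 12 of 12. Pelo-/- MEFs minus libraries labelled Upf2-/- gave -0.29 for Utp20 and -0.53 for Tsr1 (adjusted p = 0.0126 and 0.00110).

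In RNA, where mutants were compared directly, Pelo-/- minus Hbs1l-/- MEFs gave 0.62 for Polr1a, 0.81 for Mdn1 and 0.34 for Las1l. The same comparison gave -0.60 for Fbl, -1.23 for Nop58, -0.95 for Dkc1, -0.87 for Ncl, -1.40 for Npm1, -1.24 for Ddx10 and -0.35 for Bop1. Adjusted p ranged from 0.00117 for Mdn1 to 0.0394 for Bop1. Pelo-/- minus libraries labelled Upf2-/- gave 0.55 for Polr1a, 0.48 for Heatr1, 0.58 for Rrs1 and 0.53 for Mdn1. It gave -1.41 for Nop58, -0.91 for Npm1, -1.03 for Ddx10 and -1.04 for Ddx52, with adjusted p from 0.00170 for Nop58 to 0.0355 for Npm1. Of the 10 RNA differences from Hbs1l-/- MEFs, 5 passed with any 1 library left out (Fbl, Nop58, Dkc1, Npm1 and Mdn1), and of the 8 from libraries labelled Upf2-/-, 2 did (Nop58 and Ddx52).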

How the results depend on the processing

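Counts of members past the threshold, both directions together, moved by no more than 1.5 times except where given here, and the cause was not tested. The counts in this section are given without the share over all genes in the same setting. DESeq2 gave 2 genes in embryos (0 in the reported fit), 7 for TE in Hbs1l-/- MEFs (0), and 1 and 6 NMD or retained-intron transcripts in Hbs1l-/- and Pelo-/- MEFs (0 and 2). Without the filter on low counts there were 4 genes in embryos, 10 in RNA labelled Upf2-/- (6), 1 for TE in Hbs1l-/- MEFs, and 1 and 9 transcripts in Pelo-/- and in libraries labelled Upf2-/- (2 and 15). A GC offset gave 12 genes in RNA labelled Upf2-/-, and 1 and 4 for the footprint differences of Pelo-/- from Hbs1l-/- and from libraries labelled Upf2-/- (2 and 2), which became 8 and 14 with mutants compared directly. A single fit over all RNA libraries gave 12 genes in RNA labelled Upf2-/-, and 6 that rose and 9 that fell in RNA of Pelo-/- MEFs (8 and 14). With the RNA of Hbs1l-/- MEFs in place, TE gave 4 genes in Pelo-/- (34) and 7 in libraries labelled Upf2-/- (17). That setting also turned the TE of Heatr1 in libraries labelled Upf2-/- from 0.51 to -0.0763 (adjusted p = 0.743), the only named value past the threshold that changed sign in any alternative. With each named value past the threshold counted once for every alternative it was run in, 1213 of the other cases stayed past it and 266 did not. The median of all genes in RNA of Pelo-/- MEFs moved from -0.01 to -0.12 with DESeq2 and to -0.16 without the filter.

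Mutants and controls were not treated as paired by replicate number, since no comparison checked had every same-numbered correlation above 0.1. In embryos these correlations ran from 0.0993 to 0.177, close to that limit. TE, the footprint differences and the embryo minus cerebellum difference were not checked. Same-numbered MEF footprint controls of different batches did go together, as described above. With the replicate number as a block there were 3 genes in embryos, 2 for TE in Hbs1l-/- MEFs, 11 and 22 for the RNA of Pelo-/- against Hbs1l-/- and against libraries labelled Upf2-/- (25 and 14), and 0 transcripts in Pelo-/- and in libraries labelled Upf2-/-. The block left the other totals within 1.5 times, with 5 that rose and 11 that fell in RNA of Pelo-/- MEFs.

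With 1 library left out, counts ranged from 0 to 19 in embryos (19 without mutant replicate 1) and stayed at 0 to 0 in cerebella. MEF footprints gave 34 to 39 (Hbs1l-/-), 36 to 43 (Pelo-/-) and 30 to 36 (labelled Upf2-/-). RNA gave 12 to 17 in Hbs1l-/- (12 without mutant replicate 3 or control replicate 2), 8 to 24 in Pelo-/- (8 without mutant replicate 1 and 9 without mutant replicate 2) and 3 to 12 in libraries labelled Upf2-/- (12 without mutant replicate 1, and 3 without mutant replicate 2 or control replicate 2). TE gave 0 to 2 (2 without RNA control replicate 1), 28 to 35 and 7 to 20. For the last of these, 7 remained without RNA control replicate 2 or 3 or footprint control replicate 2, 8 without footprint mutant replicate 1, and 9 without footprint mutant replicate 2 or footprint control replicate 1. The embryo minus cerebellum difference gave 0 to 3 (3 without embryo mutant replicate 1). Footprint differences gave 1 to 3 for Pelo-/- minus Hbs1l-/- (1 without Pelo-/- replicate 1, its control replicate 1 or 2, Hbs1l-/- replicate 3 or its control replicate 1 or 3) and 2 to 4 for Pelo-/- minus labelled Upf2-/- (4 without Pelo-/- replicate 3 or the Upf2 batch's control replicate 3). RNA differences gave 5 to 30 (10 and 5 without Pelo-/- replicate 1 and 2) and 2 to 22 (4 and 2 without Pelo-/- replicate 1 and 2, and 22 without replicate 3 labelled Upf2-/-). Transcripts gave 0 to 0 in Hbs1l-/-, 0 to 0 in Pelo-/- and 1 to 4 in libraries labelled Upf2-/-, so that each library bore on the last count.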

Other observations

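Among the 92 tested pathway genes outside the 49, the ends of each range are given here. In MEF footprints, the lowest value was that of Nop10, a small core protein of the box H/ACA particle, at -0.64 in Hbs1l-/-, -0.45 in Pelo-/- and -0.64 in libraries labelled Upf2-/-. Urb1, a 60S factor, was highest in Hbs1l-/- (0.87) and Pelo-/- (0.89). Taf1a, a subunit of the RNA polymerase I selectivity factor, was highest in libraries labelled Upf2-/-, at 1.89 in footprints and 2.37 in RNA. In RNA of Pelo-/- MEFs, Rpf2, the partner of Rrs1, was lowest at -1.68. Mphosph10, a U3 protein, had the highest TE in Pelo-/- (2.17) and in libraries labelled Upf2-/- (1.06). These are log2 values, and the genes were named as the ends of each range after their values were seen.

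Fbl had few footprints for its RNA. In control MEFs its RNA was 150 to 188 CPM, close to the 180 to 200 CPM of its partner Nop56, while its footprints over the controls of the 3 batches were 5.37 to 8.82 CPM against 150.5 to 177 CPM for Nop56. In cerebella Fbl had 2.63 to 9.15 CPM, in control embryos 64.5 to 78.2 CPM, and in Hbs1l-/- embryos 56.4, 11.3 and 9.43 CPM. The reason was not tested.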
